A study of Mus musculus with 11 samples.

Results

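In N2A (Neuro-2A) cells, which derive from a mouse neuroblastoma, 60137 splicing events could be tested, and 2162 of them were long cassette exons that control cells almost always skip. An exon belonged to this set if it was longer than 60 nt, had at least 10 inclusion plus exclusion reads in each of 11 libraries, had a mean PSI (percent spliced in, estimated from reads over exon junctions) of 5 or less in control cells, and had a mean PSI of 1 or more over all libraries. The exons lie in 1754 genes, of which 1432 hold 1 such exon, 322 hold 2 or more, and Macf1 holds the most, 6. The exons were thus chosen by their measured PSI, in siNT and over all libraries. Control values are low by construction, and an exon of the set can mainly be gained. All 2162 entered every test, since the read minimum is part of the rule.

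RNA was taken 48 h after cells were transfected with pools of small interfering RNAs (siRNAs). The groups were knockdown of Fubp1 (2 libraries), Khsrp (2 libraries), Khsrp and Fubp1 together (2 libraries, the double knockdown), Rbm38 (2 libraries), and a non-targeting pool (siNT, 3 libraries). All groups share the transfection and the parental line, so the data describe 1 cell line and 1 time point. The series labels the libraries as biological replicates.

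An exon that is normally skipped leaves its trace in few reads, and it becomes visible when the factors that keep it out are reduced. Fubp1 and Khsrp (also called Fubp2) encode related proteins with KH domains that bind U-rich and AU-rich RNA, and Khsrp is known for roles in mRNA decay, microRNA processing and the splicing of neuronal exons. Rbm38, a p53 target gene, encodes another RNA-binding protein, known for roles in mRNA stability and splicing. Normally skipped exons include so-called poison exons, whose inclusion places a stop codon far upstream of the last exon junction and exposes the transcript to nonsense-mediated decay, and alternative coding exons of other tissues or stages.

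The labelled line was checked in the authors' deposited table of expression, which gives 1 RPKM value per group and no error. Of 15 sympathoadrenal markers, 13 reached 1 RPKM in siNT cells (Nefl and Nefm did not), and their sum lay between 1129 in the double knockdown and 1680 in the Rbm38 knockdown, against 1487 in siNT. Of 6 glial, 5 fibroblast, 3 immune and 2 endothelial markers 2, 1, 0 and 1 reached that level, with Sox10 and Col3a1 at 0. In the authors' deposited table the log2 fold change over siNT was -2.60 for Fubp1 under its own siRNAs and -3.04 in the double knockdown, -2.77 for Khsrp under its own siRNAs and -2.94 in the double knockdown, and -3.42 for Rbm38 under its own siRNAs. Khsrp had a log2 fold change of -0.70 in the Rbm38 knockdown too. The median read number of a rarely included exon was 144.5 and 94 in the double, 197 and 175 in the Fubp1, 185.5 and 113 in the Khsrp and 158.5 and 186 in the Rbm38 libraries, and 183, 230 and 146 in siNT, with the lowest values in double B and Khsrp B. Library numbers in the titles run from 1 to 4 for siNT A, siNT B and both Fubp1 libraries and from 8 to 27 for all others. By these numbers the Fubp1 and the other knockdown libraries lie in different sets, and siNT is the only group found in both. The labels do not say whether these sets are batches.

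Most of the exons did not match an internal exon of the gene annotation, and those without a match are called unannotated here. An exon annotated only as a first or last exon would not match, so a missing match does not show absence. Only 857 of 2162 (39.6%) matched an internal exon of GENCODE vM21 (build GRCm38) by gene, strand, length and distance to annotated splice sites, against 15113 of the 16222 other long exons tested (93.2%). Of the matched exons 250 (29.2%) occur only in transcripts annotated as targets of nonsense-mediated decay, against 2.1% of the other long exons, and 212 (24.7%) are wholly coding, against 85.9%. A further 215 are partly coding or untranslated in a protein-coding transcript, and 180 occur only in other noncoding transcripts. In 192 of the 250 decay exons (76.8%) the annotated stop codon lies within the exon itself, at a median first base of 37. The coding exons have another character: 159 of 212 (75%) have a length that is a multiple of 3, so that inclusion keeps the reading frame, against 39.7% of the other coding long exons, whereas over the whole set the share was 37.7%, against 38.5% of the other long exons. The exons measure 116 nt in the median (61 to 7861 nt) and are flanked by introns with medians of 1659.5 nt upstream and 1701 nt downstream, against 2466.5 nt and 2417.5 nt for the other long exons. These shares describe the annotation of exons chosen for low inclusion, and were not tested.

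At the limits of the set, an exon of Dscc1 had a control mean PSI of 4.99, just inside, and exons of Scrib and Zfp938 had 5.01 each, just outside. At the lower limit, exons of 2810408I11Rik and Cntfr had a mean over all libraries of 1.002 each, and exons of Pign and Nmral1 0.999 each. A total of 101 exons share both flanking splice sites, and thus their skipping reads, with another exon of the set, and no exons overlap. The deposited coordinates do not follow GRCm38 (385 of 15970 matched exons, 2.41%, had the same start), so positions below are those of the matched GENCODE exon on GRCm38.

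The 234-nt exons of Dst and Macf1 are shown because these sister genes encode the spectraplakins, giant proteins that link actin filaments to microtubules, and because both exons were gained in the double knockdown. The Dst exon lies at chr1:34195828-34196061 on the plus strand and the Macf1 exon at chr4:123463538-123463771 on the minus strand. Both are coding exons, read here 5′ to 3′ from the GENCODE transcripts, and capitals mark the 118 of 234 positions (50.4%) that hold the same base when the exons are laid side by side without gaps:
Dst: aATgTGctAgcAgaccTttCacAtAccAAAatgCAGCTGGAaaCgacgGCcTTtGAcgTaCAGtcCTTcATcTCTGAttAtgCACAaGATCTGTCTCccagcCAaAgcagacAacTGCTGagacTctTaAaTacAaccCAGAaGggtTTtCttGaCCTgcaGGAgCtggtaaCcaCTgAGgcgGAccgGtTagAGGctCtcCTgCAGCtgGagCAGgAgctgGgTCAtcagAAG
Macf1: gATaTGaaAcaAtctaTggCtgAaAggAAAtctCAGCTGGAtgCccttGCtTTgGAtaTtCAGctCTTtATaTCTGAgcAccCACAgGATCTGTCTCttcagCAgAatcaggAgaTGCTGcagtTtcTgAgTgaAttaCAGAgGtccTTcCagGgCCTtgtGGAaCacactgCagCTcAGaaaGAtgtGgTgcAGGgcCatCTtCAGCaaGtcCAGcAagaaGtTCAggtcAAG

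The next 6 sequences show how early an included decay exon ends translation. They are the exons called higher in the double than in the Khsrp knockdown whose annotated transcript is a decay target with its stop codon inside the exon. Each is printed from the first base of the exon through the stop codon, which is in capitals. The exons lie at chr9:70017073-70017191 (Gtf2a2, plus strand), chr6:86419694-86419812 (Tia1, plus), chr17:23811817-23812077 (Srrm2, plus), chr9:123013540-123013681 (Kif15, plus), chr4:133270670-133270814 (Tmem222, minus) and chr12:76939430-76939514 (Max, minus):
Gtf2a2: aattgctttTAG
Tia1: tcTGA
Srrm2: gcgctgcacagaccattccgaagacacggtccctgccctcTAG
Kif15: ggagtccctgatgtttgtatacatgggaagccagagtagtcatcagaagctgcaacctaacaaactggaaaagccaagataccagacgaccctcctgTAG
Tmem222: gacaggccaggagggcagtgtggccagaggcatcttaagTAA
Max: gggaaagcgagagcTGA
The stop codon starts at base 3 of the exon in Tia1, 10 in Gtf2a2, 15 in Max, 40 in Tmem222, 41 in Srrm2 and 98 in Kif15.

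Across the 4 knockdowns the exons were included most in the double knockdown. The median over exons of the group mean PSI was 1.96 in the Fubp1, 1.94 in the Khsrp, 2.98 in the double and 1.81 in the Rbm38 knockdown, against 1.89 in siNT. A PSI of 10 or more was reached by 39 and 35 exons in the Fubp1 libraries, 30 and 31 in the Khsrp libraries, 186 and 215 in the double libraries, 28 and 17 in the Rbm38 libraries, and 1, 2 and 2 in the siNT libraries. Both double libraries lie far above the 9 others. In both libraries of a group 17, 4, 114 and 7 exons reached a PSI of 10 in the Fubp1, Khsrp, double and Rbm38 knockdowns, and 25 reached 20 in the double knockdown. The highest PSI of any exon in any library was 51.6. It was an exon of Atoh8 in the double knockdown.

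**Figure D1:**
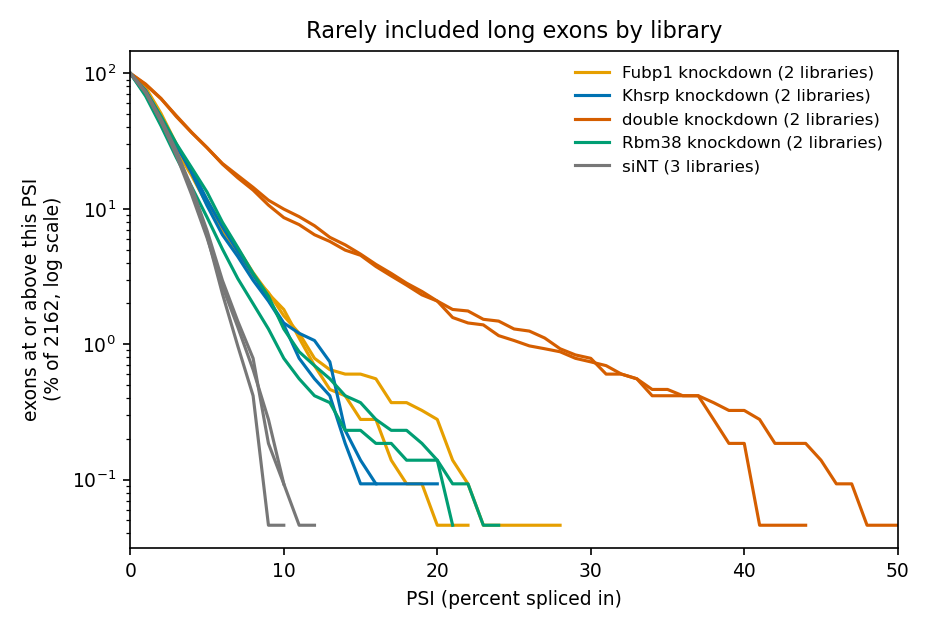
Share of the 2162 rarely included long exons (vertical axis, percent, log scale) at or above a given PSI (horizontal axis), 1 line per library, coloured by group. Both double knockdown libraries lie above all others from a PSI of a few points on, with 186 and 215 exons at a PSI of 10 or more, and the siNT lines end at a PSI of 10 to 12 since the exons were chosen for low control values.

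The comparisons with siNT are a description only, because siNT values chose the exons. The difference to siNT reached 10 points for 12, 3, 122 and 7 exons in the Fubp1, Khsrp, double and Rbm38 knockdowns, and its median over exons was 0.10, 0.11, 1.13 and -0.01 points, beside -0.33, -0.09, -0.58 and -0.08 points over all events tested. Both libraries lay above all 3 siNT libraries for 407, 305, 872 and 309 exons in the same order, and below all 3 for 274, 225, 200 and 251. No share over all events was computed for these counts, and the choice of low control values favours the first of them. Calls in limma needed an adjusted p under 0.05 over all events and at least 10 points. Higher calls numbered 1, 0, 99 and 1 in the Fubp1, Khsrp, double and Rbm38 knockdowns. These are 0.0463%, 0%, 4.58% and 0.0463% of the set, beside 0.140%, 0.00333%, 1.68% and 0.0449% of all events. In limma an unadjusted p under 0.05 was reached by 265, 177, 721 and 178 exons in the same order (12.3%, 8.19%, 33.3% and 8.23% of the set). For unadjusted p, here and below, no share over all events was computed, so these counts have no background. The authors' deposited table of calls, whose criterion the labels and files do not state, marks 20, 6, 143 and 8 of the exons as higher in the same order. These are 0.925%, 0.278%, 6.61% and 0.370% of the exons with a call in it. Among all tested events with a call it marks 0.887%, 0.730%, 2.58% and 1.09%.

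The comparison of the double with the Khsrp knockdown asks what the loss of Fubp1 adds when Khsrp is already reduced. Both groups belong to the same library set by title number. The rule did not use this difference itself, but its lower limit of 1 on mean PSI covers all 11 libraries, so a high double value could bring an exon in. In an alternative chosen after seeing the data, that limit was applied to the 7 libraries outside the comparison, which kept 1901 exons and all 54 calls given next (2.84%). In limma 54 exons in 50 genes were higher in the double knockdown and 0 were lower, which is 2.50% and 0% of the set, beside 0.810% higher and 2.78% lower among all events tested and 1.44% higher among the other long exons. In limma an unadjusted p under 0.05 was reached by 520 exons (24.1% of the set) in either direction. An exon with a PSI of a few percent in the Khsrp knockdown cannot fall by 10 points, so the direction is largely set by the choice of exons. The other long exons have the opposite limit, since 10209 of the 16222 had a control mean PSI of 95 or more. Such exons can hardly rise by 10 points, and 8.11% of the other long exons were lower. Their 1.44% is thus not a like background for the 2.50%, and a preference for rarely included exons was not tested. At a limma adjusted p under 0.05 with no minimum size, 141 were higher (6.52%, beside 1.24% of all events) and 9 lower (0.416%, beside 3.75%). The 54 exons differed by 10.1 to 41.9 points with a median of 14.7, and their mean PSI had a median of 18.4 in the double knockdown, 4.94 in the Fubp1, 3.87 in the Khsrp and 2.25 in the Rbm38 knockdown, and 2.42 in siNT. In all 54 both double libraries lay above the 9 other libraries. That count is a description, since the 54 were picked for a high double PSI from exons with low siNT values. No share over all events was computed for it. Exons called here or against the Fubp1 knockdown that are neither among the 8 largest differences nor in a gene list are named below after their values were seen. The call rests in part on the Khsrp libraries: without Khsrp A 20 exons were called and without Khsrp B 32.

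**Figure D2:**
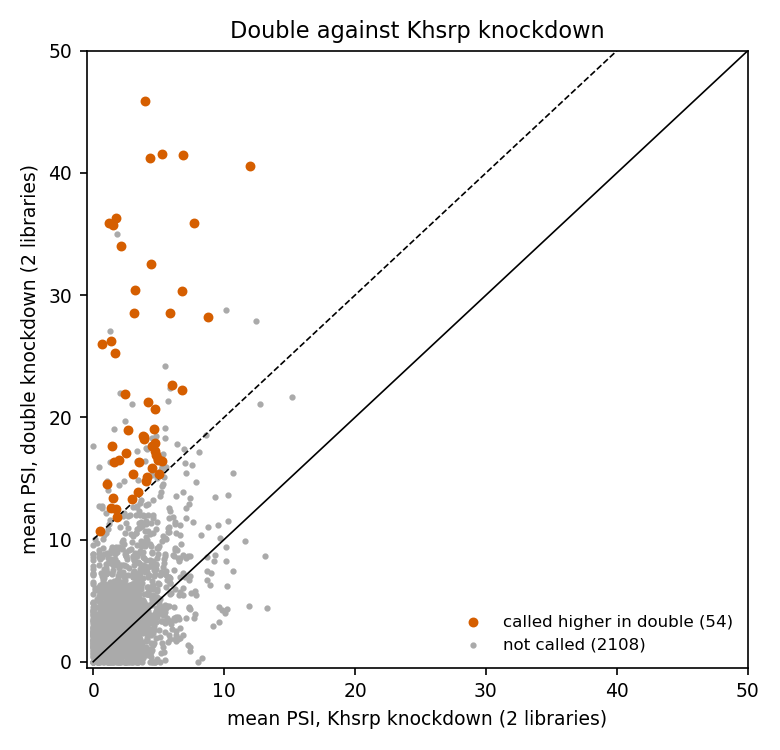
Mean PSI of each of the 2162 exons in the double knockdown (vertical axis) and the Khsrp knockdown (horizontal axis), 2 libraries each. Coloured points are the 54 exons called higher in the double knockdown in limma, the solid line marks equal values and the dashed line 10 points more in the double knockdown.

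By annotation, calls in this comparison were made for 12 of 212 coding exons (5.66%), 10 of 250 decay exons (4.0%), 6 of 215 partly coding or untranslated exons (2.79%), 5 of 180 exons of other noncoding transcripts (2.78%) and 21 of 1305 unannotated exons (1.61%). Read numbers also differ between these classes. The median of the lowest read number of an exon in any library was 108 for coding, 123 for decay and 68 for unannotated exons, and its part in these shares was not tested. Of the 12 coding exons 10 have a length that is a multiple of 3, against 1 of the 10 decay exons. Among these 12, 5 lie in the same intron of Macf1 and share skipping reads, so they are not independent. All 5 have a length that is a multiple of 3. The coding share counts them separately, and whether it exceeds the decay share was not tested. A length that is a multiple of 3 was already common among all coding exons of the set, as given above. Of the 54 exons 37 are of the simple event class of the table, and 33 are annotated.

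Of the 12 coding exons 6 lie in the spectraplakin genes Dst and Macf1. The Dst exon had a PSI of 40.8 and 41.7 in the double, 10.5 and 11.3 in the Fubp1, 3.57 and 5.09 in the Khsrp and 4.06 and 2.91 in the Rbm38 knockdown, and 2.76, 4.02 and 7.91 in siNT. Both double libraries lie far above all others, and the 2 Fubp1 libraries above the remaining 7. The double exceeded the Khsrp knockdown by 36.9 points (log2 odds 3.96 ± 0.42 SE, adjusted p = 2.37e-04 in limma) and the Fubp1 knockdown by 30.3 points (2.52 ± 0.28, adjusted p = 6.70e-04). Between 145 and 698 reads per library stand behind these values.

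In Macf1 a single annotated intron of 18952 nt holds 5 coding exons of the set, of 5331, 150, 216, 150 and 234 nt in the order of transcription, all multiples of 3 in length. They share the reads that join the flanking exons, so they are not independent. The 5331-nt exon, which begins 3849 nt into the intron, had a PSI of 24.7 and 27.4 in the double, 2.83 and 2.06 in the Fubp1, 0.66 and 0.72 in the Khsrp and 0.63 and 0.85 in the Rbm38 knockdown, and 1.16, 1.95 and 2.07 in siNT. The 234-nt exon near the other end had a PSI of 33.5 and 38.3 in the double, 5.12 and 3.23 in the Fubp1, 1.63 and 0.72 in the Khsrp and 0 and 0.89 in the Rbm38 knockdown, and 2.41, 0 and 0 in siNT. All 5 exons were included at mean PSI values from 26.0 to 36.3 in the double knockdown and at no more than 5.12 in any other library.

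The 5 Macf1 exons exceeded the Khsrp knockdown by 25.4 to 34.7 points (adjusted p from 9.80e-04 to 0.00622 in limma) and the Fubp1 knockdown by 23.6 to 33.0 points (adjusted p from 5.10e-04 to 0.00227). The skipping reads of the 234-nt exon numbered 31.3 and 34.6 in the double, 204 and 185 in the Fubp1, 145 and 65.5 in the Khsrp and 223 and 111 in the Rbm38 knockdown, and 164, 213 and 67.0 in siNT, while its inclusion reads numbered 15.7 and 21.4 in the double knockdown and at most 11.01 elsewhere. These deposited numbers move with the PSI and the total reads, so they are not separate counts of skipping and inclusion. In the authors' deposited table Macf1 itself had a log2 fold change of -0.71 (FDR 5.86e-04) in the double knockdown. Without Khsrp A the 234-nt exon (limma adjusted p = 0.204) and the downstream 150-nt exon (0.07) were no longer called against the Khsrp knockdown, and without Khsrp B the upstream 150-nt exon was not (0.053).

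**Figure D3:**
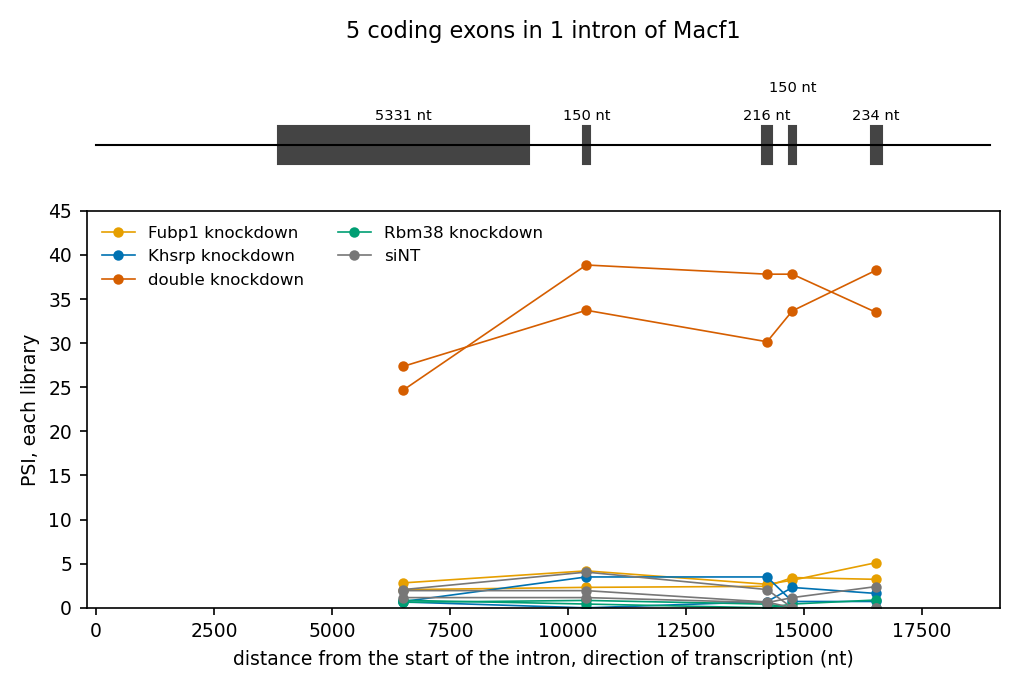
The 5 rarely included coding exons in 1 intron of Macf1, drawn to scale from the start of the intron in the direction of transcription (top), with the PSI of each exon in each library (bottom, 1 line per library, coloured by group). Both double knockdown libraries lie between 24.7 and 38.9 at every exon, and all other libraries at or below 5.12.

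Nek1, which encodes a kinase with roles in the DNA damage response and in cilia, gained an 84-nt coding exon at chr8:61071751-61071834 (plus strand). It is printed whole, since it is the called coding exon outside the spectraplakins whose PSI exceeded 30 in the double knockdown:
Nek1: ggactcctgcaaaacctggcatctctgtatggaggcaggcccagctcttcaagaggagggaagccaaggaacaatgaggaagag
Its PSI was 38.7 and 33.1 in the double, 10.0 and 9.32 in the Fubp1, 7.67 and 7.69 in the Khsrp and 2.01 and 6.24 in the Rbm38 knockdown, and 3.91, 4.14 and 5.60 in siNT. The double exceeded the Khsrp knockdown by 28.2 points (log2 odds 2.74 ± 0.37 SE, limma adjusted p = 0.00111) and the Fubp1 knockdown by 26.2 points (adjusted p = 0.00185). The remaining 5 called coding exons outside the spectraplakins differed less. Mean PSI was 18.9 ± 7.74 in the double and 2.63 ± 1.80 in the Khsrp knockdown (SD, n = 2 each) for the 87-nt exon of Agbl5, a carboxypeptidase that acts on tubulin. For Mkl2, a coactivator of serum response factor, it was 17.7 ± 4.76 in the double and 1.45 ± 0.59 in the Khsrp knockdown (SD, n = 2 each). Cacna1g, a T-type calcium channel, Terf2, a telomere protein, and Srsf9, a splicing factor of the SR family, had 18.4, 16.4 and 16.5 in the double and 3.83, 5.22 and 4.93 in the Khsrp knockdown.

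Exons of decay transcripts gave 10 of the 54 calls. The 261-nt exon of Srrm2, a large SR-related protein of nuclear speckles, had a PSI of 32.0 and 24.4 in the double, 6.87 and 5.06 in the Fubp1, 9.99 and 7.60 in the Khsrp and 4.23 and 2.84 in the Rbm38 knockdown, and 4.79, 2.95 and 5.41 in siNT. The double lay 19.4 points above the Khsrp (log2 odds 2.01 ± 0.32 SE, limma adjusted p = 0.00301) and 22.2 points above the Fubp1 knockdown (adjusted p = 8.90e-04), with 458 reads or more in each library. The 119-nt exon of Tia1, an RNA-binding protein that helps the U1 particle recognise weak 5′ splice sites, had a PSI of 30.1 and 26.9 in the double, 16.8 and 18.2 in the Fubp1, 9.33 and 2.41 in the Khsrp and 2.22 and 2.23 in the Rbm38 knockdown, and 3.33, 5.03 and 5.69 in siNT. It exceeded the Khsrp knockdown by 22.6 points (2.59 ± 0.52, limma adjusted p = 0.0124), and the 11 points to the Fubp1 knockdown did not pass (adjusted p = 0.266). Both Fubp1 libraries of Tia1 lie between the double libraries and all others.

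Gtf2a2, the small subunit of the general transcription factor TFIIA, holds the exon that differed between the Khsrp and Fubp1 knockdowns. Its 119-nt decay exon had a PSI of 25.1 and 27.3 in the double, 11.6 and 11.9 in the Fubp1, 1.33 and 1.42 in the Khsrp and 2.85 and 4.01 in the Rbm38 knockdown, and 1.95, 2.40 and 3.48 in siNT. The double libraries lie highest, both Fubp1 libraries next, and all others at 4.01 or less. The double exceeded the Khsrp knockdown by 24.8 points (log2 odds 4.62 ± 0.33 SE, limma adjusted p = 3.14e-05) and the Fubp1 knockdown by 14.5 points (1.396 ± 0.27, adjusted p = 0.0139). Reads per library numbered 228 and 238 in the Fubp1 knockdown and 410 and 506 in siNT A and B, against 978 in siNT C. In the authors' deposited table the log2 fold change of Gtf2a2 was -1.18 (FDR 9.77e-04) in the Fubp1 knockdown and -0.85 (FDR 0.0213) in the double knockdown.

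Atoh8, a basic helix-loop-helix transcription factor, showed the widest replicate spread among the large gains. Its 152-nt exon, in a decay transcript whose stop codon follows the exon, had a PSI of 31.3 and 51.6 in the double, 8.68 and 4.49 in the Fubp1, 1.16 and 12.5 in the Khsrp and 1.18 and 1.09 in the Rbm38 knockdown, and 1.68, 2.54 and 1.33 in siNT. The difference of 34.6 points to the Khsrp knockdown was called (limma adjusted p = 0.00673) but not without Khsrp A (adjusted p = 0.298, log2 odds 2.07 in place of 4.33). The exon of Max, the dimerisation partner of MYC, was more even, with 15.3 and 14.9 in the double, 2.68 and 2.18 in the Fubp1, 4.88 and 3.38 in the Khsrp and 3.62 and 3.28 in the Rbm38 knockdown, and 1.92, 2.21 and 2.88 in siNT (double minus Khsrp 11 points, limma adjusted p = 0.00165). Exons of Kif15, a mitotic kinesin, Tmem222, Tmtc1, Prpf4b, a kinase that acts on the spliceosome, and Cpsf6, a subunit of the cleavage factor that sets poly(A) sites, averaged 11.9 to 22.2 in the double and 1.79 to 6.81 in the Khsrp knockdown.

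**Figure D4:**
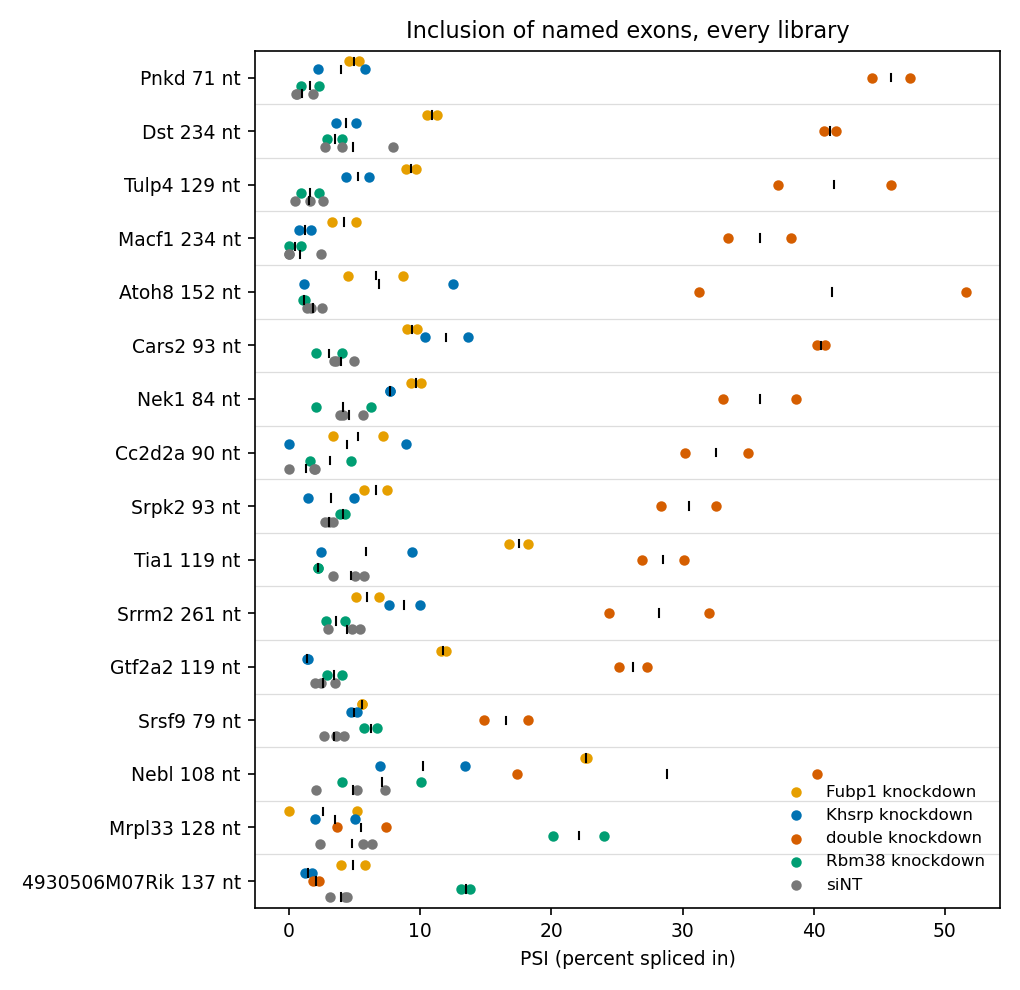
PSI of 16 named exons (rows, with gene and length) in every library; each point is a library, coloured by group, and black ticks mark group means. Double knockdown points lie to the right of all others in the 13 upper rows, Fubp1 knockdown points of Tia1 and Gtf2a2 lie in between, and Rbm38 knockdown points lead in the 2 lowest rows.

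Exons without a match in the annotation held the largest single difference, on the fewest reads. The 71-nt exon of Pnkd, a gene of paroxysmal dyskinesia, had a PSI of 44.4 and 47.4 in the double, 4.57 and 5.33 in the Fubp1, 5.76 and 2.22 in the Khsrp and 2.29 and 0.92 in the Rbm38 knockdown, and 1.78, 0.55 and 0.57 in siNT. The double values rest on 13 and 14 reads, against 69 to 223 reads in the other libraries, so the size of the difference of 41.9 points (log2 odds 4.18 ± 0.63 SE, limma adjusted p = 0.00228) is loosely fixed. The 129-nt exon of Tulp4, a relative of the tubby protein, had 37.3 and 45.9 in the double, 9.66 and 8.90 in the Fubp1, 4.35 and 6.12 in the Khsrp and 0.90 and 2.25 in the Rbm38 knockdown, and 1.61, 2.56 and 0.44 in siNT (double minus Khsrp 36.4 points, limma adjusted p = 0.00104).

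The 93-nt exon of Cars2, the mitochondrial cysteinyl-tRNA synthetase, had 40.3 and 40.8 in the double, 9.73 and 9.0 in the Fubp1, 10.3 and 13.6 in the Khsrp and 4.05 and 2.08 in the Rbm38 knockdown, and 4.98, 3.42 and 3.57 in siNT. Both single knockdowns lie above siNT here and the double well above both, by 28.6 points over Khsrp (limma adjusted p = 0.00383) and 31.2 points over Fubp1 (adjusted p = 0.00346). Among deeply read exons, that of Tcf25, a component of ribosome quality control, had 33.2 and 27.6 in the double, 5.39 and 5.26 in the Fubp1, 6.42 and 7.13 in the Khsrp and 4.70 and 5.44 in the Rbm38 knockdown, and 4.39, 3.63 and 5.50 in siNT, on at least 1480 reads per library (double minus Khsrp 23.6 points, limma adjusted p = 8.40e-05). All libraries but the double ones lie between 3.63 and 7.13. Mean PSI in the double and the Khsrp knockdown was 30.5 and 3.20 for Srpk2, a kinase of SR proteins, 32.6 and 4.44 for Cc2d2a, a protein of the ciliary transition zone, 25.3 and 1.64 for Map3k2, a kinase of the MAP kinase cascade, and 21.9 and 2.42 for the small GTPase Cdc42.

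Outside coding sequence, an exon of 2610318N02Rik that lies before the annotated start codon had a PSI of 29.9 and 27.1 in the double, 6.8 in each of the Fubp1, 2.66 and 3.55 in the Khsrp and 2.55 and 2.19 in the Rbm38 libraries, and 3.12, 2.32 and 2.50 in siNT, on at least 919 reads. The double exceeded the Khsrp knockdown by 25.4 points (log2 odds 3.66 ± 0.21 SE, limma adjusted p = 2.91e-05). The exon of Mcfd2, a partner of the cargo receptor of the secretory pathway, likewise lies before the start codon and averaged 21.3 ± 0.79 in the double and 4.195 ± 1.73 in the Khsrp knockdown (SD, n = 2 each, limma adjusted p = 0.00101).

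Against the Fubp1 knockdown 49 exons in 43 genes were higher in the double knockdown and 0 lower (2.27% and 0%, beside 0.760% higher and 2.22% lower among all events tested and 1.43% higher among the other long exons), by 10.0 to 41.0 points with a median of 14.1. Of these, 38 were also higher than in the Khsrp knockdown, which is 77.6% of the 49 and 70.4% of the 54, and the comparisons share the double libraries. The limit on rises given above holds here too for the other long exons, of which 6.33% were lower. At an unadjusted p under 0.05 in limma, 504 exons (23.3% of the set) differed in either direction. Exons called against Fubp1 and not against Khsrp were in Abl1 (2 exons, both decay exons), Kifc3, Mest, Rbm25, Kalrn, Sidt2, Aldh3a2, Pcbp4, Arid4b and a second exon of Cars2. The 62-nt exon of Rbm25, a splicing factor with an RNA recognition motif, is an example of the near misses, with 18.2 and 18.9 in the double, 5.42 and 5.01 in the Fubp1 and 7.49 and 9.68 in the Khsrp knockdown (9.93 points over Khsrp, limma adjusted p = 0.0041). Without Fubp1 A or without Fubp1 B 25 exons were called. With a term for the library sets, which rests on the 3 siNT libraries alone, 0 were called against Fubp1 and 53 against Khsrp. The log2 odds of the 8 largest called differences to Fubp1 ran from 2.54 to 4.16 with that term and from 2.65 to 4.19 without it, and the values of 2 Macf1 exons were lower with it, at 2.63 and 2.54, beside 4.03 and 4.19.

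Few exons were called between single knockdowns. Between Khsrp and Fubp1 knockdown only Gtf2a2 was called, lower in the Khsrp knockdown by 10.4 points (log2 odds -3.23, adjusted p = 0.00445), and 0 exons were higher in limma, beside 0.120% lower and 0.186% higher among all events. In limma an unadjusted p under 0.05 was reached by 241 exons (11.1% of the set). The Gtf2a2 call was lost without any 1 of the 4 libraries (limma adjusted p from 0.058 to 0.13) and with the term for the library sets (adjusted p = 0.177), while its log2 odds ran from -3.16 to -3.27 without 1 library and were -3.87 with the term. Between Rbm38 and Khsrp knockdown the 137-nt exon of 4930506M07Rik was the only one called. Its PSI was 13.8 and 13.1 in the Rbm38, 1.21 and 1.72 in the Khsrp, 3.93 and 5.8 in the Fubp1 and 2.31 and 1.83 in the double libraries, with 3.09, 4.44 and 4.29 in siNT. The Rbm38 libraries exceed all others, by 12.0 points over Khsrp (log2 odds 3.41, limma adjusted p = 0.00179), beside 0.166% higher and 0.0466% lower among all events, and without Khsrp A the call was lost (adjusted p = 0.0925). None were lower in limma, and 186 exons (8.60% of the set) reached an unadjusted p under 0.05. A missed threshold does not show that the single knockdowns act alike, since most exons rest on a few inclusion reads per library.

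The largest differences to siNT in each single knockdown are given as a description. In the Fubp1 knockdown the 108-nt coding exon of Nebl, an actin-binding protein, had a PSI of 22.7 and 22.5 in the Fubp1 libraries, against 5.16, 7.31 and 2.02 in siNT, on as few as 12 reads. Exons of Ccdc14 and Tia1 followed, at mean values of 19.4 and 17.5 in the Fubp1 knockdown and 4.80 and 4.68 in siNT. In the Khsrp knockdown the exon of Ccdc88a, an actin-binding regulator of cell migration, had 16.5 and 13.9 in the Khsrp libraries, against 5.08, 3.51 and 3.45 in siNT, and the exons of D430042O09Rik and Dennd3 averaged 13.1 and 12.8 in the Khsrp knockdown and 1.71 and 2.01 in siNT. None of these rests on more than 108 reads per Fubp1 or Khsrp library.

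In the Rbm38 knockdown the 128-nt exon of Mrpl33, a protein of the mitochondrial ribosome, had a PSI of 20.1 and 24.0 in the Rbm38 libraries, against 5.61, 6.34 and 2.33 in siNT, and lay 18.6 points above the Khsrp knockdown without passing the test (limma adjusted p = 0.154). The 654-nt exon of Ccdc41 had 18.7 and 22.0 in the Rbm38 libraries, against 3.91, 3.45 and 6.96 in siNT. It did not pass against the Khsrp knockdown either (12.5 points, limma adjusted p = 0.101). A 69-nt coding exon of Map3k9, a kinase upstream of JNK signalling, averaged 17.4 ± 2.36 in the Rbm38 knockdown (n = 2) and 4.203 ± 3.201 in siNT (SD, n = 3). Losses could not exceed 5 points, and the largest were from uneven control values, such as Zfp280d with 0 and 0 in the double knockdown, against 0, 1.64 and 12.8 in siNT. Nipa2 was the evenest of them, with 0.42 and 0.28 in the double, 2.61 and 2.26 in the Fubp1, 3.89 and 2.32 in the Khsrp and 4.67 and 3.26 in the Rbm38 knockdown, and 5.11, 4.89 and 4.71 in siNT (double minus Khsrp -2.76 points, limma adjusted p = 0.0709).

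Exons of the set that lie in genes of RNA handling were followed by list. Of 20 genes of nonsense-mediated decay and mRNA turnover 6 hold 9 exons, and none was called in the double against either single knockdown. The largest value among them was the 191-nt exon of Xrn1, the cytoplasmic 5′ to 3′ exoribonuclease, with 26.5 and 29.3 in the double, 3.34 and 6.99 in the Fubp1, 4.34 and 20.5 in the Khsrp and 4.94 and 1.59 in the Rbm38 knockdown, and 3.31, 1.64 and 6.47 in siNT (double minus Khsrp limma adjusted p = 0.111, double minus Fubp1 adjusted p = 0.0678). Khsrp B lies well above Khsrp A and below both double libraries. Of 23 repressors of exons 3 hold 1 exon each and none was called. That of Ptbp1, the polypyrimidine tract-binding protein that silences neuronal exons, had 9.61 and 11.02 in the double and 4.13 and 6.55 in the Khsrp knockdown (limma adjusted p = 0.202).

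SR proteins, Tra2 and relatives held 13 exons in 8 genes, of which the 261-nt exon of Srrm2 and the 79-nt exon of Srsf9 were called against both single knockdowns. Srsf11, an SR-related gene, holds 5 of them, including a 109-nt decay exon with 7.63 and 7.39 in the double, 5.02 and 5.2 in the Fubp1 and 1.74 and 1.23 in the Khsrp knockdown, which passed the test against Khsrp at 6.03 points (limma adjusted p = 0.00258), below the 10 points of a call. The 1328-nt exon of Acin1, a subunit of the ASAP complex that joins exon junction complexes, had 5.40 and 4.96 in the double and 2.07 and 1.14 in the Khsrp knockdown (limma adjusted p = 0.00931), and 7.93 and 6.57 in the Fubp1 knockdown. Factors of splice site recognition held 8 exons in 7 genes, of which Tia1 was called. For those in Luc7l2, Luc7l3, Puf60, Rbm39 and Tial1, mean PSI in the double knockdown ran from 0.225 to 3.065. The exons of Fubp1 and Fubp3 themselves averaged 0.84 and 4.11 in the double and 1.83 and 3.89 in the Khsrp knockdown. The median difference of the double knockdown to siNT over the exons of these lists was 1.43 points for decay factors, 0.36 for repressors, 0.48 for SR and Tra2 and 0.20 for splice site recognition, beside 1.13 for the whole set.

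Expression of the same lists in the double knockdown, in the authors' deposited table at an FDR under 0.05, was lower for 11 of 23 repressors (Hnrnpa2b1, Hnrnpa3, Hnrnpc, Hnrnpf, Hnrnph1, Hnrnpk, Hnrnpm, Pcbp2, Ptbp2, Raver1 and Sfpq), 8 of 19 SR and Tra2 genes and 11 of 23 genes of splice site recognition. Higher ones numbered 0, 0 and 1, and the decay factors split into 2 higher and 4 lower of 20, beside 3080 higher and 3192 lower of 23378 genes in all. Among the 8878 hosts of all events tested the shares were larger, at 18.6% higher and 24.4% lower. In the Rbm38 knockdown the authors' deposited table has 8, 6 and 13 lower and 0, 0 and 1 higher in these lists, with 5 lower and 1 higher of the decay factors, beside 1640 lower and 1860 higher of all genes. The Fubp1 knockdown has 10, 5 and 7 lower and 0 higher, with 4 lower and 4 higher decay factors, beside 2448 lower and 2811 higher of all genes. The Khsrp knockdown has 2, 1 and 1 lower and 0 higher, with 1 lower and 1 higher decay factor, beside 1015 lower and 893 higher of all genes. The part of the listed genes in the inclusion of the exons was not tested.

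Inclusion and skipping reads were also set side by side, scaled by the median reads per tested event of each library. The deposited numbers are not separate junction counts. In siNT B the skipping reads of Macf1 exons in the same intron ran from 213.0 to 217.67, and were higher where inclusion reads were higher. The inclusion and skipping numbers thus restate PSI and total reads, and give no independent view of inclusion or skipping. Inclusion reads in both double libraries exceeded both Khsrp libraries for 53 of the 54 exons higher in the double than in the Khsrp knockdown, and all 3 siNT libraries for 54 of 54. Skipping reads in both double libraries lay below both Khsrp libraries for 37 of the 54 and above them for 3. These counts are a description, since the 54 exons were picked for a higher PSI in the double knockdown. No share over all events was computed for them.

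Host genes of these exons were followed in the same expression values. In the authors' deposited table, of 49 host genes with a value 25 (51%) were lower in the double knockdown than in siNT at an FDR under 0.05 and 1 (Mcfd2) was higher, with a median log2 fold change of -0.38. Among 8878 hosts of all events tested 24.4% were lower and 18.6% higher (median -0.04), among 1702 hosts of all rarely included long exons 30.9% were lower and 14.4% higher (median -0.16), and among 193 hosts of the other long exons called higher in the same comparison 49 (25.4%) were lower and 48 (24.9%) higher (median -0.03). Of 10 hosts of decay exons 6 were lower (median -0.74), of 21 hosts of exons whose length is a multiple of 3 10 were lower (median -0.38), of 28 hosts of exons of other lengths 15 were lower (median -0.50), and of 8 hosts of coding exons 2 were lower (median -0.19). Among the 49 hosts, Exoc5, a subunit of the exocyst, had the strongest drop in the double knockdown. In the authors' deposited table its log2 fold change was -2.03 (FDR 2.44e-48), followed by the nucleoporin Nup155 with -1.48 (FDR 1.95e-26). Dst and Pnkd had 0.01 each. In the Rbm38 knockdown 14 of the 49 were lower and 5 higher, beside 14% and 10.4% of hosts of all events. In bulk RNA fewer cells that express a gene and less RNA per cell cannot be told apart, and which of exon and expression changed first is not measured here.

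**Figure D5:**
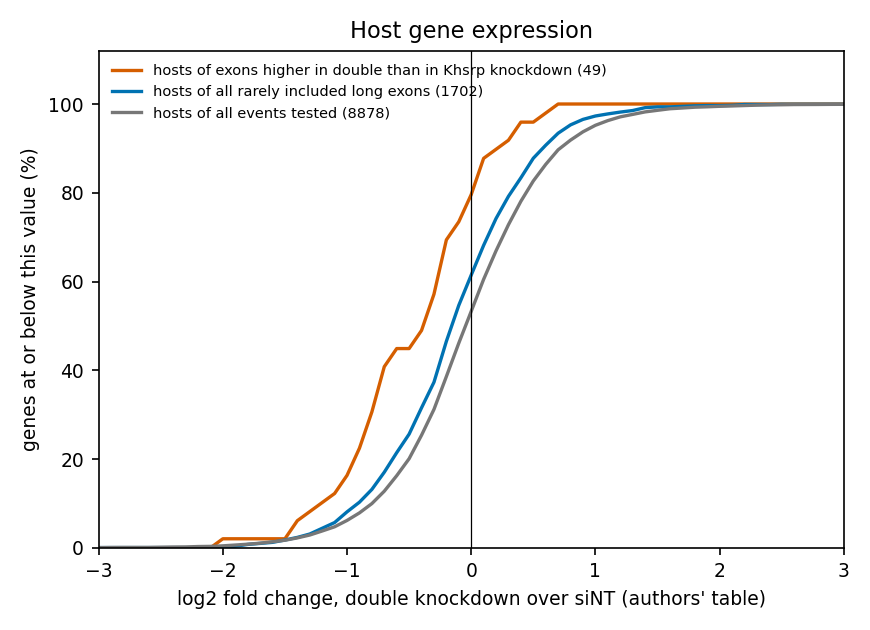
Cumulative share of host genes (vertical axis, percent) by log2 fold change of the double knockdown over siNT in the authors' table (horizontal axis). The curve for 49 hosts of exons higher in the double than in the Khsrp knockdown lies left of the curves for 1702 hosts of all rarely included long exons and 8878 hosts of all events tested, with medians of -0.38, -0.16 and -0.04.

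For the 54 exons the single knockdowns were set beside the double knockdown. The median difference to siNT was 15.8 points in the double knockdown, and the sum of both single differences had a median of 3.88 points. The double exceeded that sum for 54 of 54 exons, as a description, since these exons were picked for a high double value. The spread between the double libraries was 2.83 points in the median (SD, n = 2) and 14.4 at most, in Atoh8.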

How the data were processed

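The authors deposited 1 vast-tools table (named so in the file) with percent spliced in and corrected inclusion and exclusion reads for each event and library; no version, read correction or build is stated for it. The authors deposited expression as RPKM per group with log2 fold changes over siNT, each with a p-value and an FDR. The submitters' processing notes name Salmon 0.14.1, edgeR and mm10. A further deposited table gives 1 PSI per group, treated here as a score because it can exceed 100, and the authors' calls.

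From the reads, log2((inclusion + 0.5)/(exclusion + 0.5)) was fitted in limma 3.58.1 (R 4.3.3) over 60137 events with at least 10 reads in each library and a mean PSI between 1 and 99, with 1 mean per group, weights of 1/(binomial variance + 0.05) and a variance trend. Calls required a difference of at least 10 points and a p under 0.05 after Benjamini-Hochberg adjustment over all events. The procedure was tested on simulated data. Read numbers per exon give the depth and set the precision. Replicate letters are those of the descriptions, since both Fubp1 titles carry A. They did not pair libraries: differences between A and B correlated between -0.062 and 0.058 over 10 group pairs.

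Comparisons between knockdowns were tested, and those with siNT described. The exons and gene lists were chosen with earlier results of these data known. Named exons were the 8 largest gains over siNT per knockdown, the 8 largest called differences per comparison, exons in the gene lists, the 2 largest losses per knockdown, and exons at the limits of the set; other called exons were chosen after their values were seen. Intron and protein sequences were not used here. Values of some named exons are not reported here.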

Additional observations from a re-analysis of the deposited data

How the results depend on the processing

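The numbers of exons called were 54 (double minus Khsrp), 49 (double minus Fubp1), 1 (Khsrp minus Fubp1) and 1 (Rbm38 minus Khsrp), and no result changed direction. Double minus Fubp1 and Khsrp minus Fubp1 depended most on the model: without weights 19 and 0 were called, and with a term for the library sets 0 and 0. Rbm38 minus Khsrp gave 2 calls with the set term, 2 with weights from each library and no floor, and 2 with the replicate block, under which double minus Khsrp gave 58, double minus Fubp1 48 and Khsrp minus Fubp1 1. At 5 points 100, 96 and 4 exons were called in the first 3 comparisons, and with no minimum difference 150, 147 and 8. With no limit on mean PSI double minus Khsrp gave 33. With that limit on the libraries outside each comparison, an alternative chosen after seeing the data, 54, 45, 1 and 1 were called. Leaving out 1 library gave 20 to 54 calls for double minus Khsrp, 25 to 49 for double minus Fubp1, 0 to 1 for Khsrp minus Fubp1 and 0 to 2 for Rbm38 minus Khsrp. The causes were not tested.

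With 2 libraries a knockdown, a few inclusion reads per library and low depth in double B and Khsrp B, differences of a few points at PSI values near 0 were often not detectable. By title number, libraries of the Fubp1 knockdown and of 2 of the 3 siNT samples form a set of their own, which touches each comparison with Fubp1. Whether it is a batch is not stated. PSI is a ratio of reads, so it does not tell more inclusion from loss of skipped transcripts. RPKM values of the authors have no error here.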
